A study of Mus musculus with 10 samples.

Results

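Expression was examined for *Wdfy1* and 9 genes of Toll-like receptor signaling in granulocyte-macrophage progenitors (GMPs), the bone marrow cells that give rise to neutrophils and monocytes. The 10 genes, out of 51717 annotated genes with summed reads, were *Wdfy1*, the receptors *Tlr1*, *Tlr2*, *Tlr4*, *Tlr6*, *Tlr7* and *Tlr9*, the adaptors *Myd88* and *Ticam1*, and the co-receptor *Cd14*. *Wdfy1* was selected on its lower read counts in the knockout, in these same samples, so its difference between groups is given here as a description, with no test. The other 9 were chosen for their role in the pathway.

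RNA was sequenced from CD45.2+ GMPs sorted from mixed bone marrow chimeras, in which irradiated CD45.1 hosts carry donor marrow beside CD45.1 competitor marrow. WT donors were ROSA26 CreER+/- and knockout donors were Mpc2fl/fl; ROSA26 CreER+/-, both labelled as male mice of strain C57Bl6/N. *Mpc2* encodes a subunit of the carrier that brings pyruvate into mitochondria. Both groups therefore carried CreER, a tamoxifen-activated recombinase expressed from the broadly active ROSA26 locus, and both received tamoxifen chow for 2 wk just before the cells were taken. Each group had 5 samples, a WT sample from 1 mouse and a knockout sample from a pool of 2 mice, and the age of the mice was not given.

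Toll-like receptors recognize microbial molecules. Some sit at the cell surface and bind lipoproteins or lipopolysaccharide, whereas others sit in endosomes and bind nucleic acids. Most signal through the adaptor MyD88, while TRIF, encoded by *Ticam1*, serves TLR3 and endosomal TLR4, and both routes lead to NF-κB and interferon regulatory factors. WDFY1 is a protein of early endosomes with a FYVE domain, which binds a membrane lipid, and WD repeats, and it has been described as a link between TLR3 or TLR4 and TRIF. GMPs express part of this system and can respond to microbial products directly.

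The samples held 14033776 to 19745405 estimated reads. *Mpc2* ranged from 60.9 to 117 CPM in the WT samples and from 17.1 to 43.9 CPM in the knockout samples. CPM values are read counts scaled to library size with TMM factors. *Mpc2* reads remained in every knockout sample. In the paper exon 3 of *Mpc2* is the floxed one, whereas reads were summed here over whole transcripts. The *Mpc2* values therefore do not measure how complete the deletion was. Across the genome, edgeR's quasi-likelihood test at an adjusted p of 0.05 called 41 of 12381 tested genes (0.331%), 15 higher in the knockout (0.121%) and 26 lower (0.210%). This split depended on the setting, with 26 higher and 20 lower when only library size was used for scaling, 110 and 96 without the filter on low counts, and 77 and 79 with DESeq2. All 9 GMP-defining markers were detected and none was called, but their summed level was 90031 to 127304 CPM in WT and 53675 to 91983 CPM in knockout samples. Markers of tissue macrophages summed to 18.9 to 33.9 CPM in WT and 36.7 to 61.8 CPM in knockout samples, and 3 of the 7 tested, *C1qa*, *C1qb* and *C1qc*, were called higher.

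*Wdfy1* (ENSMUSG00000073643) lies on the minus strand of mouse chromosome 1 at chr1:79702262-79776143 (GRCm38). Its main coding transcript, ENSMUST00000113512, has 12 exons over 4551 bases, of which 1230 are coding. Exons 4, 5 and 6 of this transcript each occur a second time in the reference genome, 7442 bases further along the gene, with 0 bases different. They are shown because 319 coding bases of *Wdfy1* therefore could not be assigned to one copy or the other from the reads. All letters are in lower case because no base distinguishes the copies.
Exon 4, 55 bases, chr1:79729656-79729710, minus strand, copy at chr1:79722214-79722268: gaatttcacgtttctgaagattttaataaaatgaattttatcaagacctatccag
Exon 5, 151 bases, chr1:79726566-79726716, minus strand, copy at chr1:79719124-79719274: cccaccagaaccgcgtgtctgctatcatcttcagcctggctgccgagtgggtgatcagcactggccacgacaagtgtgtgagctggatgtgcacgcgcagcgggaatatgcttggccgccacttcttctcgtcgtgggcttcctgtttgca
Exon 6, 113 bases, chr1:79724645-79724757, minus strand, copy at chr1:79717203-79717315: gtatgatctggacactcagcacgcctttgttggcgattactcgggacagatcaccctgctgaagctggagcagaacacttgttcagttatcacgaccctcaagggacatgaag
The annotation lists 14 transcripts of *Wdfy1*, and 6 of them were not quantified because their sequences are exact copies of quantified ones. The main transcript stands for 3 such copies beside itself. The reference genome is that of C57BL/6J mice, whereas the labels give C57Bl6/N, and the number of copies of these exons in the mice was not tested. *Mpc2* lies on the same chromosome, at chr1:165460637-165481214, and only the knockout donors carried its floxed alleles. The paper lists different sources for the floxed *Mpc2* line and the ROSA26 CreER line. The quantified values do not show whether donors of both groups carried the same copies. A difference between the groups at this locus and a difference in expression therefore cannot be told apart here.

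In CPM *Wdfy1* was lower in every knockout sample than in every WT sample, an order found for 1.32% of tested genes. Since *Wdfy1* was picked for its lower counts, this order is a description. The WT samples had 70.05, 70.2, 66.4, 59.8 and 67.8 CPM, and the knockout samples had 47.0, 39.2, 42.8, 42.3 and 42.8 CPM. The means were 66.9 ± 4.27 (SD, n = 5) in WT and 42.8 ± 2.75 (SD, n = 5) in knockout GMPs, a log2 fold change of -0.64 (SE 0.07), or 1.56-fold lower. The lowest WT sample, replicate 4, was still above the highest knockout sample, replicate 1. On the TPM scale, which corrects for transcript length, the means were 24.0 ± 3.47 in WT and 17.0 ± 1.17 in knockout GMPs, and the groups again did not overlap. Every sample had between 561 and 1431 estimated *Wdfy1* reads. In bulk RNA of this kind, fewer cells with a transcript and less RNA per cell cannot be told apart.

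**Figure D1:**
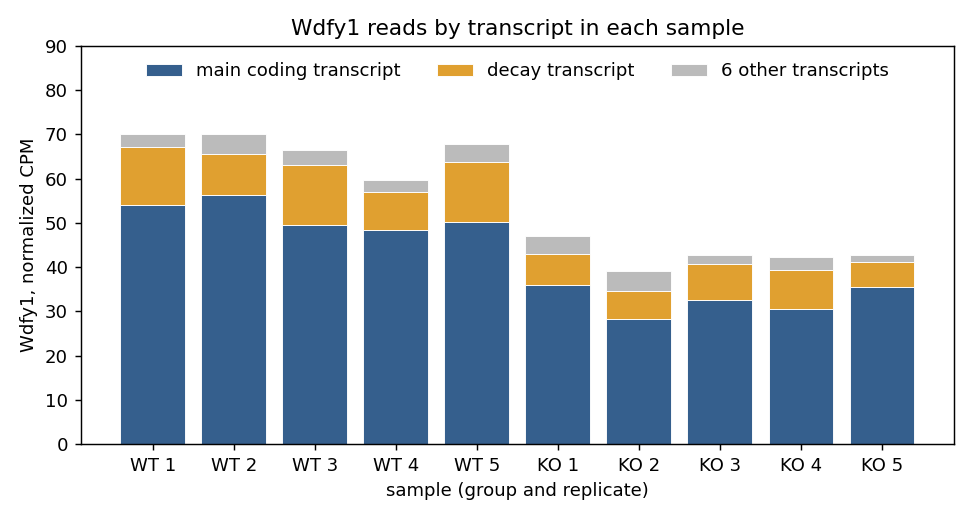
Stacked bars give *Wdfy1* in normalized CPM for each of the 5 WT and 5 knockout samples, divided into the main coding transcript, the decay transcript and the 6 other quantified transcripts. Each knockout bar is shorter than each WT bar, and the main transcript makes up 72.4% to 82.8% of every bar.

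The lower level was found in both transcripts that held most of the reads. The main transcript took 77.4% ± 3.20 of *Wdfy1* reads in WT and 76.1% ± 4.24 in knockout samples (SD, n = 5). Its level was 48.4 to 56.4 CPM in WT and 28.4 to 35.9 CPM in knockout samples, with no overlap. The decay transcript, ENSMUST00000187005, took 17.3% ± 3.38 and 16.6% ± 2.86 of reads. It has 11 exons over 1359 bases, is annotated as a target of nonsense-mediated decay, and lacks the 55-base exon shown above. It measured 13.01, 9.15, 13.6, 8.57 and 13.5 CPM in the WT samples and 6.94, 6.15, 8.03, 8.61 and 5.78 CPM in the knockout samples. These ranges touched, since WT replicate 4 was just below knockout replicate 4. The knockout mean was 0.631 times the WT mean for the main transcript and 0.614 times for the decay transcript, and the shares of reads differed between groups by less than their SD. The other 6 transcripts together held 3.57 ± 0.796 CPM in WT and 3.10 ± 1.30 CPM in knockout samples, and their ranges overlapped. Because short transcripts weigh more per length, the decay transcript came close to the main one in TPM, with 34.5% against 38.6% of the summed WT value. Reads that match several transcripts were shared out by Salmon, so these levels are estimates.

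No tested gene next to *Wdfy1* passed the threshold. *Mrpl44*, which encodes a mitochondrial ribosomal protein and starts inside the upstream end of 1 *Wdfy1* transcript (ENSMUST00000143368) on the opposite strand, had 130 ± 8.46 CPM in WT and 123 ± 14.1 CPM in knockout GMPs (log2 fold change -0.08, SE 0.08, edgeR adjusted p = 0.794). *Serpine2*, which encodes a secreted protease inhibitor, had 120 ± 12.6 and 110 ± 30.1 CPM (-0.13, SE 0.16, edgeR adjusted p = 0.845). Within 2 Mb of the *Wdfy1* start, 12 other genes were tested, 0 were called, and 1, *Cul3*, had an unadjusted edgeR p under 0.05. No strand setting of the read counting is given in the sources used here, so reads from the overlap of *Wdfy1* and *Mrpl44* could be given to either. Of the quantified transcripts, that 1 transcript reaches the overlap, and it held at most 8.05% of *Wdfy1* reads in any sample.

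**Figure D2:**
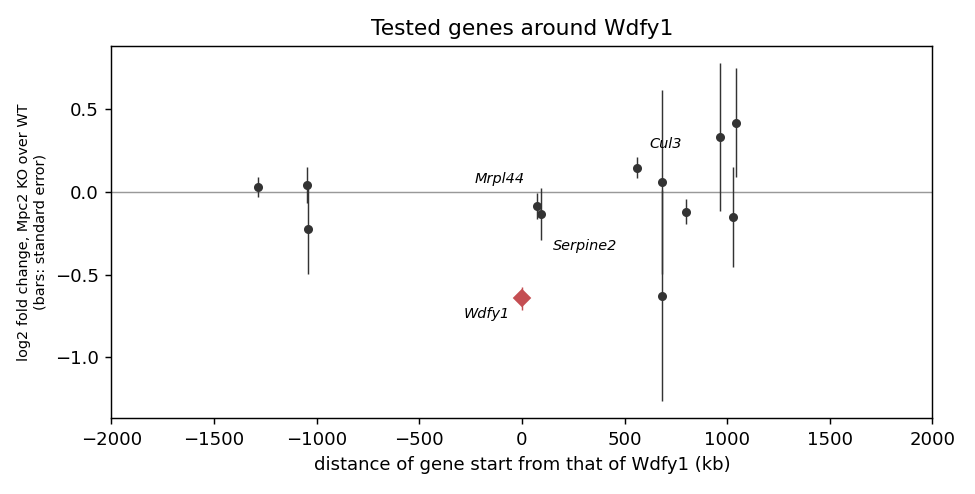
The log2 fold change of knockout over WT (vertical axis, bars are standard errors) is plotted against the distance in kb between each tested gene's start and that of *Wdfy1*. *Wdfy1*, the diamond at -0.64, sits below *Mrpl44* (-0.08) and *Serpine2* (-0.13), and the other points range from -0.63, for a gene with a wide error, to 0.42.

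The 5 tested genes whose profile over the 10 samples was most like that of *Wdfy1* were *Ccl24*, *Trappc12*, *Dbn1*, *Polg* and *Ppm1h*. Likeness was the root mean square difference of centered log2(CPM + 0.5) values, which was 0.144 for *Ccl24*, 0.147 for *Trappc12*, 0.156 for *Dbn1*, 0.172 for *Polg* and 0.173 for *Ppm1h*, against a median of 0.376 over tested genes. *Trappc12*, which encodes a vesicle tethering factor, had 28.7 ± 1.49 CPM in WT and 20.03 ± 2.09 CPM in knockout GMPs. *Polg*, the mitochondrial DNA polymerase, had 19.3 ± 2.47 and 13.2 ± 1.13 CPM. *Ccl24* and *Dbn1* averaged under 2 CPM in both groups, so their place in this order rests on few reads. These genes were picked for resembling a gene that was itself picked for its difference, and no test is given for them.

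Per length, the 10 genes covered a wide range of levels in WT GMPs. *Myd88* (27.7 TPM) and *Wdfy1* (24.0 TPM) came first, with overlapping ranges, followed by *Cd14* at 6.79 ± 2.87 TPM, which overlapped neither *Wdfy1* above it nor *Tlr2* below it. *Tlr2* (1.51 TPM), *Ticam1* (1.33), *Tlr4* (0.912), *Tlr6* (0.570), *Tlr1* (0.394) and *Tlr7* (0.204) followed, and each overlapped the next in range. *Tlr9* came last, separate from *Tlr7*. In knockout GMPs the order was the same, and there *Myd88* (27.5 ± 3.93 TPM) no longer overlapped *Wdfy1*. *Tlr1*, with a lowest knockout value of 0.151 TPM, no longer overlapped *Tlr7*, with a highest knockout value of 0.148 TPM.

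**Figure D3:**
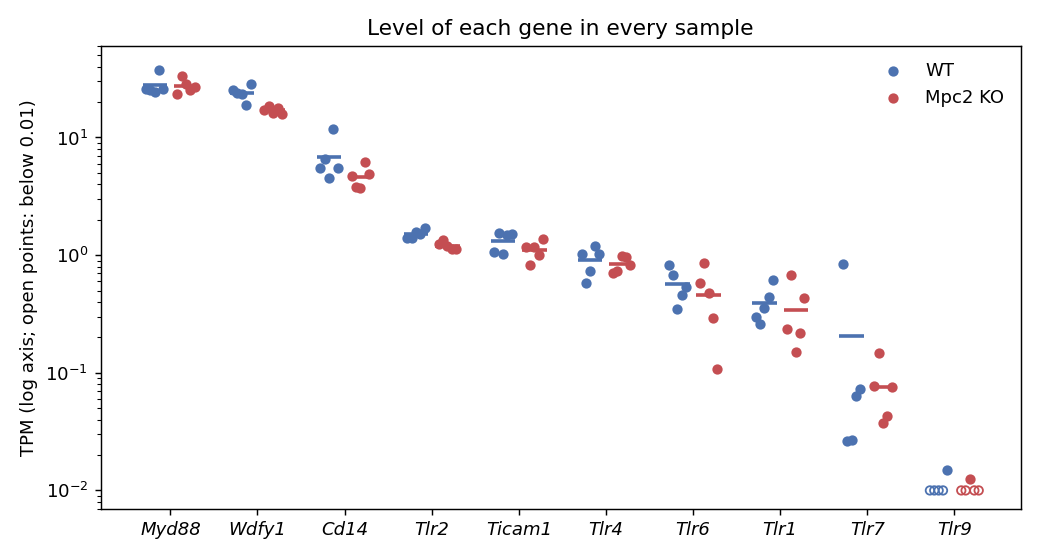
Each point is 1 sample, the horizontal lines are group means (n = 5), and the vertical axis is TPM on a log scale, with values under 0.01 drawn as open points at 0.01. *Myd88*, *Wdfy1* and *Cd14* lie above all 6 receptor genes, and *Wdfy1* separates into a WT group with a mean of 24.0 and a knockout group with a mean of 17.0 TPM.

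Of the 9 genes other than *Wdfy1*, 7 passed the filter on low counts and 0 were called, against 0.331% of all tested genes. DESeq2 also called 0, of 8 with an adjusted p, where it called 1.09% of all genes it tested. At an unadjusted edgeR p under 0.05, 2 of the 7 were lower in the knockout and 0 higher, where 5.35% and 4.89% of all tested genes were. Of the 7 log2 fold changes, 6 were below 0, with a median of -0.32, while 50.4% of all tested genes were below 0 and their median was -0.0018. *Tlr7* and *Tlr9* had too few reads to test.

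*Tlr2*, which encodes the receptor for bacterial lipoproteins, had 4.70, 5.05, 5.997, 5.75 and 5.81 CPM in the WT samples and 4.64, 4.48, 4.01, 3.77 and 3.76 CPM in the knockout samples. The highest knockout sample lay just below the lowest WT sample, an order found for 1.32% of tested genes. Counting both directions, 2.43% of tested genes had groups that did not overlap, and of the 7 only *Tlr2* did. The means were 5.46 ± 0.558 and 4.13 ± 0.405 CPM (log2 fold change -0.40, SE 0.14), and the difference did not pass the adjusted threshold (edgeR adjusted p = 0.305). Between 62 and 101 reads stood behind each sample's value.

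*Cd14*, which encodes a surface protein that hands lipopolysaccharide to TLR4 and is abundant on monocytes, had 8.27, 10.1, 7.54, 18.5 and 8.68 CPM in the WT samples and 8.09, 5.73, 5.52, 8.77 and 7.22 CPM in the knockout samples. WT replicate 4 was far above the rest, and the other WT samples overlapped the knockout samples. The means were 10.6 ± 4.50 and 7.07 ± 1.42 CPM (log2 fold change -0.58, SE 0.23, edgeR adjusted p = 0.415). Without WT replicate 4 the log2 fold change was -0.29. Monocyte markers summed to 2394 to 3795 CPM in WT and 900 to 3523 CPM in knockout samples, and 0 of the 6 tested were called. Their part in the values of *Cd14* and *Tlr2*, and that of the tissue macrophage markers given above, was not tested.

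*Tlr4*, which encodes the lipopolysaccharide receptor, had 4.80, 2.88, 3.92, 6.37 and 4.91 CPM in WT and 3.66, 3.43, 3.71, 4.51 and 3.87 CPM in knockout samples. The knockout samples all lay within the WT range (log2 fold change -0.25, SE 0.20, edgeR adjusted p = 0.745), and the log2 fold change was -0.11 without WT replicate 4 and -0.38 without WT replicate 2. *Tlr1* and *Tlr6*, whose products pair with TLR2 to recognize different lipoproteins, had fewer reads. *Tlr1* measured 0.832 to 1.71 CPM in WT and 0.440 to 1.44 CPM in knockout samples (-0.40, SE 0.35, edgeR adjusted p = 0.774). Its log2 fold change was -0.22 without WT replicate 4, -0.22 without knockout replicate 3 and -0.70 without knockout replicate 5. *Tlr6* measured 1.17 to 2.27 CPM in WT and 0.464 to 3.57 CPM in knockout samples (0.09, SE 0.41, edgeR adjusted p = 0.963), and it lay both below and above the WT range in the knockout.

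*Tlr1* and *Tlr6* are neighbors on chromosome 5 with closely related sequences. Of the 31-base words in the coding sequences, 25.6% of those of *Tlr1* and 25.3% of those of *Tlr6* also occurred in the other gene, so reads from these stretches could be given to either. The longest identical stretch is printed because it shows how far the genes cannot be told apart. It spans 229 bases, coding bases 1468 to 1696 of *Tlr1* and 1507 to 1735 of *Tlr6*, in transcripts of the GRCm38 annotation, and all letters are in lower case because every base is shared.
*Tlr1* and *Tlr6*, shared coding stretch: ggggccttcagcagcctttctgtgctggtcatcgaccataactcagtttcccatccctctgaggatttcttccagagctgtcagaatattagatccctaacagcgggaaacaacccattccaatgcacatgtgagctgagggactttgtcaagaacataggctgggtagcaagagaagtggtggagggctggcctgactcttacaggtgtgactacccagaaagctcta
The sum of both genes does not depend on how such reads were divided. It was 2.98 ± 0.646 CPM in WT and 2.83 ± 1.10 CPM in knockout GMPs, and the groups overlapped. *Tlr2*, *Tlr7*, *Tlr9*, *Ticam1* and *Cd14* shared 0 such words with any other gene.

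The endosomal receptors were near or under the limit of detection. *Tlr7*, whose product senses single-stranded RNA, had 2 to 5 reads in each WT sample and 3 to 9 reads in each knockout sample, and 3 reads corresponded to 0.147 to 0.233 CPM. Its mean WT level of 0.204 TPM rested on WT replicate 1, in which 1 read was given to a 261-base transcript, and was 0.0473 TPM without that sample. *Tlr9*, whose product senses unmethylated DNA, had 1 read in WT replicate 5, 1 read in knockout replicate 3 and 0 reads in the other samples. A difference in either gene was not detectable at this depth.

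*Myd88* had the highest mean TPM of the set. Its samples measured 52.2, 55.6, 54.7, 83.0 and 52.3 CPM in WT and 50.6, 64.3, 57.3, 49.3 and 54.0 CPM in knockout samples. The groups overlapped and WT replicate 4 stood above the rest (log2 fold change -0.11, SE 0.13, edgeR adjusted p = 0.841). Leaving that sample out gave a log2 fold change of 0.04. The gene shared 8.93% of its 31-base words with its neighbor *Acaa1a*, which encodes a peroxisomal thiolase and had 73.2 ± 4.16 CPM in WT and 66.1 ± 4.44 CPM in knockout GMPs. *Ticam1*, which overlapped *Tlr2* in TPM, measured 3.52, 5.55, 3.86, 5.67 and 5.09 CPM in WT and 4.36, 2.73, 3.86, 3.35 and 4.59 CPM in knockout samples. Its groups overlapped as well (-0.32, SE 0.19, edgeR adjusted p = 0.619).

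**Figure D4:**
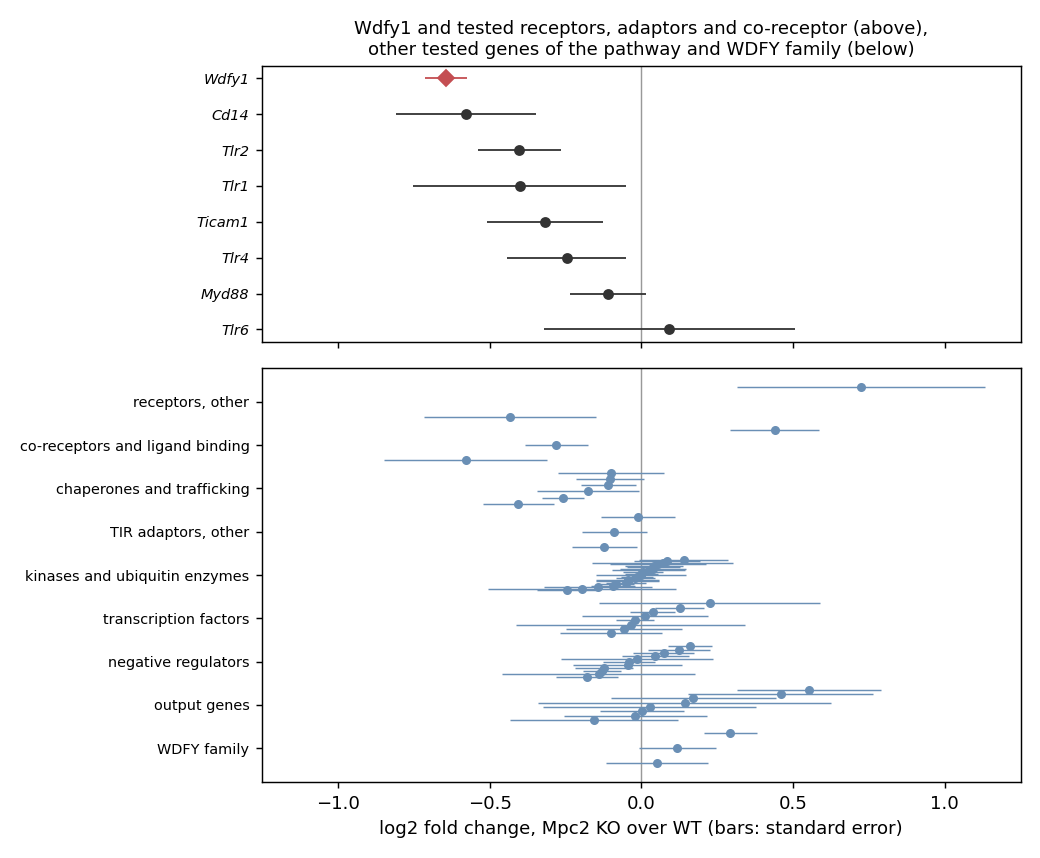
Points are log2 fold changes of knockout over WT with standard errors, for *Wdfy1* (diamond) and the 7 tested receptor, adaptor and co-receptor genes in the upper panel, and for 62 other pathway genes and 3 WDFY genes by role in the lower panel. *Wdfy1* was picked on this contrast, so its point and error are a description. The kinases, from -0.24 to 0.14, cluster around 0.

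The wider pathway was followed through 80 further genes for receptors, co-receptors, chaperones, adaptors, kinases and ubiquitin enzymes, transcription factors, negative regulators and output genes. Of these, 62 were tested and 0 were called by edgeR or DESeq2, which called 0.331% and 1.09% of all genes they tested. At an unadjusted edgeR p under 0.05 there were 8, or 12.9% of those tested against 10.2% of all tested genes, 3 higher and 5 lower. The median log2 fold change was -0.02, with 26 genes above and 36 below 0, where 50.4% of all tested genes were below 0. The 18 genes with too few reads to test included *Tlr3*, *Tlr5*, *Tlr8*, *Tlr11* and *Tlr13*, and the cytokine genes *Il1b* and *Il6*, and none of the 18 exceeded a mean of 0.347 TPM.

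Co-receptors and chaperones held most of the pathway genes with an unadjusted p under 0.05. *Ly96*, which encodes the MD-2 subunit that binds lipopolysaccharide for TLR4, was on the higher side. *Ly96* had 6.03 ± 1.11 CPM in WT and 8.17 ± 0.994 CPM in knockout GMPs (log2 fold change 0.44, SE 0.15, edgeR adjusted p = 0.298). In CPM every knockout sample was above every WT sample, as for 1.11% of tested genes. In TPM the groups overlapped, with 10.9 to 16.4 in WT and 15.1 to 23.8 in knockout samples. *Ly86*, whose product MD-1 partners the receptor-like protein of *Cd180*, had 57.6 ± 12.1 and 38.7 ± 16.4 CPM (-0.58, SE 0.27, edgeR adjusted p = 0.482). Knockout replicate 3, at 14.3 CPM, was below all other samples, and without it the log2 fold change was -0.36. *Cd180* itself had 1.67 ± 0.412 and 1.22 ± 0.346 CPM (-0.43, SE 0.28, edgeR adjusted p = 0.653), and -0.28 without knockout replicate 1. *Lbp*, encoding the lipopolysaccharide-binding protein, had 89.5 ± 11.2 and 73.7 ± 10.6 CPM (-0.28, SE 0.10, edgeR adjusted p = 0.366).

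All 6 tested genes for chaperones and trafficking had log2 fold changes below 0, from -0.41 to -0.10, with a median of -0.14. Among all tested genes, 50.4% were below 0. Of the 6, 0 were called, against 0.331% of all tested genes. *Cnpy3*, a chaperone needed to fold several Toll-like receptors, had 108 ± 10.6 CPM in WT and 90.7 ± 3.43 CPM in knockout GMPs (-0.26, SE 0.07, edgeR adjusted p = 0.189). In CPM every knockout sample was below every WT sample, as for 1.32% of tested genes. In TPM the groups overlapped, with 54.5 to 81.0 in WT and 45.8 to 56.5 in knockout samples. *Hsp90b1*, which encodes gp96, the endoplasmic reticulum chaperone that works with CNPY3 and folds many other proteins, had 941 ± 179 and 710 ± 75.8 CPM (-0.41, SE 0.12, edgeR adjusted p = 0.220). It was the 1 pathway gene called under any alternative setting, with an edgeR adjusted p of 0.0215 when no filter on low counts was applied.

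Genes of the signaling chain had log2 fold changes close to 0. Among 21 kinases and ubiquitin enzymes, 10 were above and 11 below 0, with a median of -0.00093. *Ube2n*, which encodes the enzyme that builds the ubiquitin chains used in this pathway, had 234 ± 7.84 CPM in WT and 234 ± 13.1 CPM in knockout GMPs (0.00, SE 0.05, edgeR adjusted p = 0.999). *Ikbke*, a kinase upstream of interferon regulatory factors, had 21.7 ± 1.30 and 18.3 ± 2.52 CPM (-0.24, SE 0.10, edgeR adjusted p = 0.416). *Pik3ap1*, which encodes the adaptor BCAP, had 23.5 ± 3.52 and 22.1 ± 2.36 CPM (edgeR adjusted p = 0.846).

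The transcription factor *Irf3* had 64.5 ± 3.14 CPM in WT and 63.5 ± 3.39 CPM in knockout GMPs (-0.02, SE 0.06, edgeR adjusted p = 0.946), and 4 of the 8 factors were above 0. Of 11 tested negative regulators, 4 were above and 7 below 0. *Nfkbia*, an NF-κB inhibitor that is itself an NF-κB target, had 102 ± 10.8 and 107 ± 15.8 CPM (0.07, SE 0.10, edgeR adjusted p = 0.868). *Sigirr*, a receptor that dampens the pathway, had 26.3 ± 2.03 and 29.4 ± 1.07 CPM (0.16, SE 0.07, edgeR adjusted p = 0.458).

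Of 18 output genes, 8 were tested, 6 of them above and 2 below 0, with a median of 0.09. The chemokine gene *Ccl4* had 2.06, 2.22, 1.96, 2.95 and 2.33 CPM in WT and 2.46, 1.96, 3.91, 4.20 and 4.17 CPM in knockout samples. Knockout replicates 3, 4 and 5 were above all WT samples and replicates 1 and 2 were not (0.55, SE 0.24, edgeR adjusted p = 0.447). *Ccl5* had 6.85 ± 2.66 and 6.81 ± 0.996 CPM (-0.02, SE 0.24, edgeR adjusted p = 0.988).

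The other genes of the WDFY family, which encode WD repeat proteins of different sizes, did not pass the threshold. *Wdfy4*, known for its role in antigen cross-presentation, had 17.96, 22.7, 23.7, 19.97 and 20.2 CPM in WT and 28.0, 25.7, 25.9, 24.6 and 24.2 CPM in knockout samples. In CPM every knockout sample was above every WT sample, as for 1.11% of tested genes (0.29, SE 0.09, edgeR adjusted p = 0.223). The direction was opposite to that of *Wdfy1*. In TPM the groups overlapped, with 1.78 to 4.41 in WT and 2.21 to 4.45 in knockout samples. With the transcript length offset the log2 fold change was 0.32 (SE 0.26). *Wdfy2* had 8.09 ± 1.29 and 8.76 ± 0.727 CPM (0.12, SE 0.13, edgeR adjusted p = 0.828). *Wdfy3*, which encodes the autophagy protein ALFY, had 6.07 ± 1.04 and 6.25 ± 1.21 CPM (0.05, SE 0.17, edgeR adjusted p = 0.953). Markers of other cell types that a GMP sort could hold were also detected. Those of late neutrophils summed to 121 to 208 CPM in WT and 124 to 452 CPM in knockout samples, and those of basophils, mast cells and eosinophils to 162 to 494 and 203.5 to 365 CPM. Erythroid and megakaryocyte markers summed to 17.3 to 35.7 CPM in WT and 35.2 to 111 CPM in knockout samples, and dendritic cell markers to 1.19 to 1.94 and 0.563 to 1.55 CPM, with *Cd209a* and *Clec9a* at no more than 3 reads in every sample. The part of these markers, and of the GMP-defining ones, in the values above was not tested.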

How the data were processed

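The authors sorted CD45.2+ GMPs, isolated RNA with a NucleoSpin RNA XS kit, had SMARTseq V4 libraries sequenced (Illumina NovaSeq), and used Salmon with the Gencode M27 annotation (version 1.5.1 in the submitters' processing notes). For each of the 10 samples the authors deposited unnormalized estimated counts, which can be fractional, and TPM, which is scaled to transcript length and to one total per sample. The authors also deposited their own DESeq2 comparison (mean signal as normalized counts, log2 fold change, standard error, test score, p-value and adjusted p-value), which was not used.

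M27 was not at hand, so transcripts were matched by Ensembl identifier to GENCODE M21 (GRCm38). Of 140789 transcripts, 137161 (97.4%) matched. The 3628 others, with 0.348% to 0.390% of a sample's reads, were left out. Reads and TPM were summed to 51717 genes, and summed reads were rounded to whole numbers. Samples totaled 14033776 to 19745405 reads, and 3 reads corresponded to 0.147 to 0.233 CPM, a limit that covers counting error only since the reads carry no molecular identifiers. No 2 samples of the same group were identical, and replicates differed beyond sampling noise. Samples are labelled as biological replicates.

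Genes were tested with the quasi-likelihood test of edgeR 4.0.16 in R 4.3.3. Scaling was by TMM, filterByExpr used a minimum count of 10, the model held the condition alone, and p-values of 12381 genes were adjusted by the Benjamini-Hochberg method. The script was first tested on simulated counts. CPM values are TMM-normalized, and errors are SD over 5 samples. Sequences and positions came from GENCODE M21 on GRCm38, and words of 31 bases were compared with all M21 transcripts. The alternatives were RLE and library-size scaling, no filter, a transcript length offset, DESeq2 1.42.0, limma 3.58.1 on log2(TPM + 1) or log2(TPM + 0.1) at a mean TPM of at least 1, the replicate number as a block, and leaving out each sample.

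The genes and lists were chosen with earlier results of these data known. Genes named beside the 10 were the 8 pathway genes with the smallest unadjusted p, the most abundant tested gene of each pathway subgroup, the WDFY family, the 5 profiles nearest to *Wdfy1* and tested genes starting within 500 kb of it. *Acaa1a*, *Cul3* and the marker and undetected genes named were added after their values were seen.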

Additional observations from a re-analysis of the deposited data

Results flagged for a closer look

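In 7 of 72 groups of 5 samples, 1 sample lay further from the others than Dixon's test allows, where chance gives about 1 in 20, or 3.6. WT replicate 4 had 83.0 CPM of *Myd88*, against 52.2 to 55.6 CPM in the other WT samples, and 18.5 CPM of *Cd14*, against 7.54 to 10.1 CPM. WT replicate 1 had 4.26 CPM of *Wdfy3*, against 6.23 to 6.84 CPM, and 145 CPM of *Mrpl44*, against 126 to 128 CPM. Knockout replicate 4 had 0.670 CPM of *Ccl24*, against 0.489 to 0.515 CPM in the other knockout samples. The single *Tlr9* reads of WT replicate 5 (0.0599 CPM) and knockout replicate 3 (0.0489 CPM) were flagged because the other samples of each group had 0.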

How the results depend on the processing

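*Wdfy1* was lower in the knockout under all 18 alternatives. Its log2 fold changes were -0.68 to -0.61 when 1 sample was left out, -0.46 with limma on log2(TPM + 1) and -0.48 on log2(TPM + 0.1). *Wdfy1* was picked for this difference in these same samples, so these values are a description and give no independent support. Of the other 9 genes, 0 were called under each alternative, among 9 tested without the filter, 8 with DESeq2, 4 with limma and 7 in the rest. Of the pathway list, 1 gene, *Hsp90b1*, was called without the filter on low counts. Over all genes, 206 were called without that filter, 156 with DESeq2, 25 and 24 with limma at pseudocounts of 1 and 0.1, and 25 to 91 when 1 sample was left out. The highest count came without knockout replicate 2, and the lowest came without knockout replicate 3 or 4, with 26 without WT replicate 3. The cause was not tested. By summed TPM in place of reads, the main *Wdfy1* transcript held 38.6% in WT and 36.0% in knockout samples and the decay transcript held 34.5% and 31.2%, by construction of a unit that divides by length.

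Replicate numbers did not pair the samples. Same-numbered samples correlated at -0.18 to 0.05 after group means were removed, and 0 of 10 matched best with their own number. The fit with the replicate number as a block called 20 genes, and gave -0.054 for *Tlr6*, -0.00087 for *Ube2n* and 0.051 for *Ccl5*, with signs opposite to those reported.

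Other changes of sign were in genes whose reported log2 fold change was smaller than its SE, none called. They were *Irf3* (0.051) and *Ccl5* (0.032) with library size only, *Tlr6* (-0.33) and *Irf3* (0.036) with the length offset, *Myd88* (0.00062 and 0.00082), *Irf3* (0.097 and 0.099) and *Ccl5* (0.064 and 0.074) with limma at pseudocounts of 1 and 0.1. When 1 sample was left out, *Tlr6* ranged from -0.22 to 0.36, *Myd88* from -0.17 to 0.037, *Ube2n* from -0.028 to 0.028, *Ccl5* from -0.18 to 0.15, *Wdfy3* from -0.056 to 0.13, *Pik3ap1* from -0.13 to 0.0021 and *Irf3* from -0.040 to 0.0073. Without changing sign, *Cd14* ranged from -0.68 to -0.29, *Tlr1* from -0.70 to -0.22, *Tlr4* from -0.38 to -0.11, *Ly86* from -0.79 to -0.36, *Cd180* from -0.55 to -0.28, *Nfkbia* from 0.02 to 0.14, *Wdfy2* from 0.03 to 0.18, *Mrpl44* from -0.14 to -0.04 and *Serpine2* from -0.25 to -0.0030. Library size only shifted the median of all genes by less than 0.1 on the log2 scale. Low reads limit *Tlr1*, *Tlr6*, *Tlr7* and *Tlr9*, and a knockout sample averages 2 mice where a WT sample holds 1.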
